A study of Mus musculus with 18 samples.

Results

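The 7 genes described here, Cpd, Abr, Pou2f2, Marcksl1, Myo1d, Rab31 and Pcdhgc3, were chosen by an earlier look at the same expression values, because the effect of the inhibitor MTOB on them differed between wildtype and Ctbp1/2dKO cells. The table listed 18204 genes, of which 16383 were tested, and 15 of these passed the threshold on that difference. All 7 members were among them and all 7 passed the filter on low values. Their MTOB values are therefore given as a description, and the only contrast tested on the members was the one between genotypes under the other inhibitor, 4-Cl-HIPP.

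RNA sequencing covered J774.1 cells, a mouse macrophage line, in 18 samples that form 6 groups of 3. Wildtype cells and cells with both Ctbp1 and Ctbp2 knocked out (Ctbp1/2dKO, here dKO) were each kept for 4 h with vehicle (PBS/DMSO), with MTOB at 1.5 mM or with 4-Cl-HIPP at 250 µM. MTOB, the keto acid of methionine, and 4-Cl-HIPP, a chlorinated phenylpropanoic acid with an oxime group, are used to block the dehydrogenase domain of the CTBPs. One vehicle group per genotype served both inhibitors, and their doses differed, so the values of both inhibitors stand side by side below and were not compared. According to the study's methods CRISPR-treated cells were grown out from single cells and the clones selected as wildtype or knockout, so clone and genotype cannot be told apart. The labels number the replicates, and where these are not separate cultures the p-values measure only the spread between these samples.

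Levels are TPM, transcript abundances scaled for gene length and to a common total per library, so the depth of each library is unknown here. TPM sums over the listed genes lay between 999766 and 999897, and replicates of a group correlated across genes at 0.983 to 0.987. Ctbp1 was at 218 ± 18.1 TPM in wildtype and 25.1 ± 0.638 in dKO cells under vehicle (mean ± SD, n = 3 each), whereas Ctbp2 was at 92.6 ± 4.57 and 75.9 ± 3.13. RNA of a gene disrupted by a frameshift can remain, so neither level checks the loss of protein. The study itself reported the loss of both proteins by western blot. All 9 macrophage markers listed in the table were above 1 TPM in every sample, with sums between 3000 and 4090 TPM (3270 to 4090 in wildtype, 3000 to 3470 in dKO). Listed markers of B cells, T cells, fibroblasts, epithelium, endothelium and neurons summed to at most 2.1 TPM each in any sample, and those of endothelium to 0 to 0.421 TPM in wildtype and 0.64 to 2.1 TPM in dKO samples. The part of these marker differences in the values below was not tested.

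CTBPs are co-regulators that do not bind DNA themselves. They are brought to promoters and enhancers by DNA-binding factors that carry a short docking motif, among them ZEB and KLF proteins, and there they recruit enzymes that remove active histone marks. In macrophages they take part in restraining inflammatory genes. The 7 genes do not form one pathway. Cpd encodes carboxypeptidase D, a membrane enzyme of the trans-Golgi network that trims basic residues from processed proteins. Marcksl1 encodes a membrane-bound actin and calmodulin binding protein related to MARCKS, Myo1d a class I myosin and Rab31 a small GTPase of endosomal transport. Pou2f2 encodes OCT2, a POU transcription factor that binds the octamer motif, and Pcdhgc3 a cell adhesion protein of the gamma protocadherin cluster.

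Promoter sequence is shown for 2 members because CTBPs act at regulatory DNA and because they stand for different patterns: Pou2f2 had nearly equal vehicle levels in both genotypes, and Myo1d had a higher one in dKO cells. The windows hold the 250 bases upstream of the annotated canonical start on GRCm39, both on the minus strand, written 5′ to 3′. Capitals mark the KLF box CACCC in Pou2f2 and the ZEB E-box CACCTG in Myo1d, on either strand.
Pou2f2, chr7:24831938-24832187: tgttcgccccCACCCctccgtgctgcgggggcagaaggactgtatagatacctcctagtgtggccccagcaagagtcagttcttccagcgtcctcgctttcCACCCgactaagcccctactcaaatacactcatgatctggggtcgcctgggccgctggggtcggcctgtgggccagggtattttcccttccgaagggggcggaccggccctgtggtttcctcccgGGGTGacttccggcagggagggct
Myo1d, chr11:80670884-80671133: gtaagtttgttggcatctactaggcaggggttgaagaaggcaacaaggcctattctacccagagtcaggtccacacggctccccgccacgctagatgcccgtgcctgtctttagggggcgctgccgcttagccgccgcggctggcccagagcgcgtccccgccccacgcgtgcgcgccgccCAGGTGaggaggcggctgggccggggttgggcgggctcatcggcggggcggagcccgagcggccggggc

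Motifs were searched on both strands in windows of 300 bases, 250 before and 50 from the start on, for 5 members (Abr, Pou2f2, Marcksl1, Myo1d and Rab31) and for 16292 tested genes in all. The KLF box CACCC was found in 3 of the 5 (Abr, Pou2f2 and Marcksl1) and in 58.7% of all windows. The ETS core GGAAG, not capitalised above, was found in 4 of the 5, all but Myo1d, and in 73.6% of all windows. Myo1d held the only ZEB E-box, CACCTG, which 18.6% of all windows held. The octamer ATGCAAAT (1.51% of all windows), the AP-1 motif TGANTCA (5.9%), the antioxidant element TGACNNNGC (13.3%) and the CLEAR E-box CACGTG (8.75%) were in 0 of the 5. These matches are letters in a window, not bound sites, and with common motifs the counts lay near the share in all promoters. CpG content differed among the members, with 36 CpG in the Abr window, 32 in Myo1d, 15 in Pou2f2, 10 in Rab31 and 3 in Marcksl1, beside a median of 14 over all windows. The canonical start of Pou2f2 lies inside the annotated gene, and the 5 genes have between 4 and 15 annotated transcripts, so other starts were not covered.

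**Figure D1:**
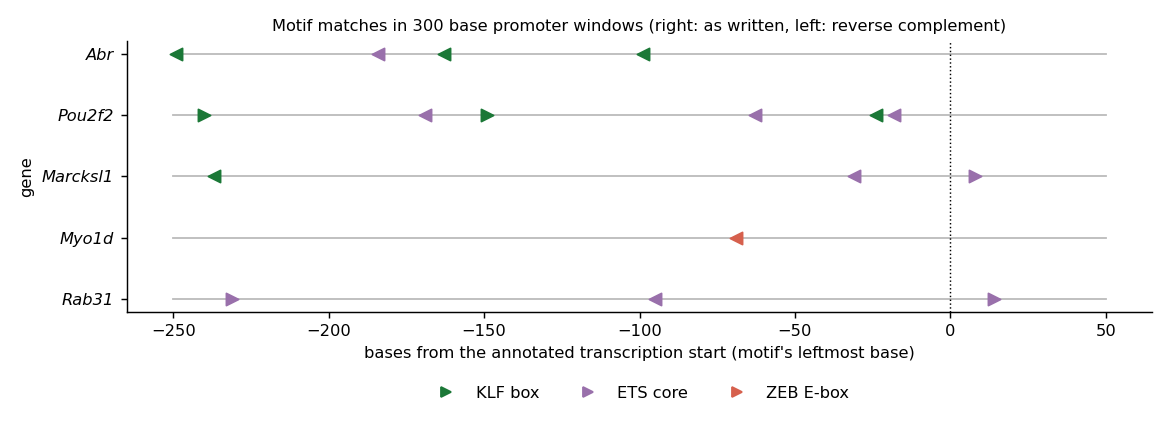
Matches of 3 motifs in the 300 base promoter windows of 5 members, by distance in bases of the leftmost base of the match from the annotated start (dotted line). Triangles pointing right are matches as written and those pointing left are reverse complements. KLF boxes lay in 3 genes, ETS cores in 4 and a ZEB E-box in Myo1d alone.

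Cpd (ENSMUSG00000020841, GRCm39 chr11:76668034-76737892, minus strand) was at 29.4, 27.8 and 28.3 TPM in the wildtype vehicle samples, 95.6, 97.7 and 104 TPM under MTOB and 43.1, 44.4 and 42.6 TPM under 4-Cl-HIPP. In dKO samples its level was 30.2, 29.4 and 28.3 TPM under vehicle, 67.7, 69.3 and 67.3 TPM under MTOB and 43.1, 39.6 and 40.6 TPM under 4-Cl-HIPP. Vehicle and 4-Cl-HIPP levels of both genotypes overlapped, and under MTOB every wildtype sample lay above every dKO sample. The MTOB level was 3.48 times the vehicle level in wildtype and 2.32 times in dKO cells. On the scale of log2(TPM + 1), on which all differences below are given, the MTOB effect was 1.76 in wildtype and 1.19 in dKO, a difference of 0.57 (SE 0.06). Cpd was also the member with the highest level under 4-Cl-HIPP relative to vehicle, by 0.59 in wildtype and 0.47 in dKO (SE 0.04 each). For that inhibitor the effects of the genotypes differed by 0.12 (95% interval -0.01 to 0.24), a value given without a test because it shares the vehicle samples.

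Abr (ENSMUSG00000017631, chr11:76307560-76514435, minus strand) had higher levels, and 4-Cl-HIPP samples close to vehicle. It read 59.4, 59.4 and 62.3 TPM under vehicle, 135, 122 and 127 TPM under MTOB and 57.4, 53.5 and 59.0 TPM under 4-Cl-HIPP in wildtype samples. The dKO samples read 62.3, 66.7 and 69.1 TPM, 86.7, 91.6 and 93.0 TPM and 65.3, 61.3 and 61.1 TPM in the same order. MTOB samples were the highest of each genotype, and the wildtype ones lay well clear of the dKO ones. Relative to vehicle, MTOB levels were 2.12 times as high in wildtype and 1.37 times in dKO, a log2 effect of 1.07 against 0.45 and a difference of 0.62 (SE 0.07). 4-Cl-HIPP levels were slightly below vehicle levels in both genotypes, by -0.09 in wildtype and -0.08 in dKO (SE 0.05 each). The span of Abr overlaps Timm22 and Rpl36-ps2 on the opposite strand. Exon overlap was not checked, and the library kit did not mark strand, so reads from any shared exon bases cannot be assigned by strand.

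Pou2f2 (ENSMUSG00000008496, chr7:24786769-24879151, minus strand) had the lowest vehicle levels of these 3 genes and the largest ratio under MTOB. Its values were 22.3, 20.9 and 18.9 TPM under vehicle, 88.7, 83.5 and 85.0 TPM under MTOB and 22.5, 22.3 and 23.6 TPM under 4-Cl-HIPP in wildtype samples. In the dKO samples they were 19.4, 19.8 and 18.7 TPM, 51.3, 50.7 and 52.9 TPM and 23.9, 21.0 and 23.7 TPM. The genotypes overlapped under 4-Cl-HIPP and, through the replicate of 18.9 TPM, under vehicle, and were far apart under MTOB. MTOB samples were at 4.13 times the vehicle level in wildtype and at 2.68 times in dKO, with effects of 2.00 and 1.38 and a difference of 0.62 (SE 0.08). Under 4-Cl-HIPP the level was above vehicle by 0.13 in wildtype and 0.24 in dKO (SE 0.06 each). The span of the gene overlaps that of the antisense lncRNA gene D930028M14Rik. Whether their exons overlap was not checked, and reads from any shared exon bases cannot be assigned without strand.

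Marcksl1 (ENSMUSG00000047945, chr4:129406288-129409778, plus strand) was the member with the highest TPM under MTOB, and its genotype order turned over with treatment. Wildtype samples had 89.5, 85.9 and 94.3 TPM under vehicle, 425, 418 and 390 TPM under MTOB and 87.3, 101 and 99.8 TPM under 4-Cl-HIPP. The dKO samples had 116, 117 and 124 TPM, 363, 314 and 344 TPM and 132, 127 and 138 TPM. Every dKO sample was higher than every wildtype sample under vehicle and 4-Cl-HIPP, and lower under MTOB. The genotype difference (dKO minus wildtype) was 0.40 under vehicle and -0.27 under MTOB (SE 0.06 each). MTOB levels stood at 4.57 times vehicle in wildtype and 2.86 times in dKO, effects of 2.18 and 1.51 that differed by 0.68 (SE 0.09). The 4-Cl-HIPP effects were 0.09 and 0.15.

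Myo1d (ENSMUSG00000035441, chr11:80372952-80670883, minus strand) was at 12.3, 12.1 and 12.6 TPM in wildtype vehicle samples, 36.6, 32.8 and 29.6 TPM under MTOB and 12, 10.8 and 11.6 TPM under 4-Cl-HIPP. The corresponding dKO values were 24.3, 22.2 and 26.4 TPM, 34.0, 37.2 and 39.6 TPM and 24.7, 20.9 and 22.2 TPM. Here the genotypes were apart under vehicle and 4-Cl-HIPP, with dKO levels at 1.97 times the wildtype level in both, and they overlapped under MTOB. The MTOB ratio to vehicle was 2.68 in wildtype and 1.52 in dKO, with effects of 1.35 and 0.58. The difference of 0.76 (SE 0.12) was the highest of the members, and it came with MTOB levels of 33 ± 3.52 TPM in wildtype and 36.9 ± 2.85 TPM in dKO (mean ± SD, n = 3 each). The 4-Cl-HIPP effect was -0.10 in both genotypes (SE 0.08). An lncRNA gene, C030013C21Rik, overlaps Myo1d on the same strand.

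Rab31 (ENSMUSG00000056515, chr17:65958723-66079839, minus strand) differed little between groups, and its MTOB effects had opposite signs. It had 108, 114 and 115 TPM under vehicle, 123, 125 and 127 TPM under MTOB and 119, 118 and 127 TPM under 4-Cl-HIPP in wildtype samples. In dKO samples it had 143, 134 and 138 TPM, 123, 125 and 123 TPM and 141, 147 and 147 TPM. The wildtype vehicle samples were the lowest and the dKO vehicle and 4-Cl-HIPP samples the highest, while MTOB samples of both genotypes overlapped. The MTOB effect was 0.15 in wildtype and -0.16 in dKO (SE 0.04 each), which makes a difference of 0.31 (SE 0.05). The corresponding TPM ratios were 1.11 and 0.893.

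Pcdhgc3 (ENSMUSG00000102918) was listed at 0 in all 9 dKO samples, so no MTOB effect could be read in that genotype. In wildtype samples it was at 21.8, 20.7 and 20.2 TPM under vehicle, 29.7, 27.5 and 29.9 TPM under MTOB and 22.6, 21.2 and 23.0 TPM under 4-Cl-HIPP. The MTOB samples were the highest, at 1.39 times vehicle and an effect of 0.45 (SE 0.05), and vehicle and 4-Cl-HIPP samples overlapped. Its difference of 0.45 between genotypes (SE 0.07) is this wildtype effect set against zeros, and the 9 zeros enter the spread as values without any. The gene shares its last exons with the other gamma protocadherins and overlaps 18 genes of the table, so reads can be split among them. A total of 7 genes with a wildtype mean of at least 1 TPM were listed at 0 in all dKO and above 0 in all wildtype samples, and 10 genes were so the other way round. Pcdhgc3 had by far the highest wildtype mean of the 7, with 24.1 TPM against 3.84 TPM for the next.

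**Figure D2:**
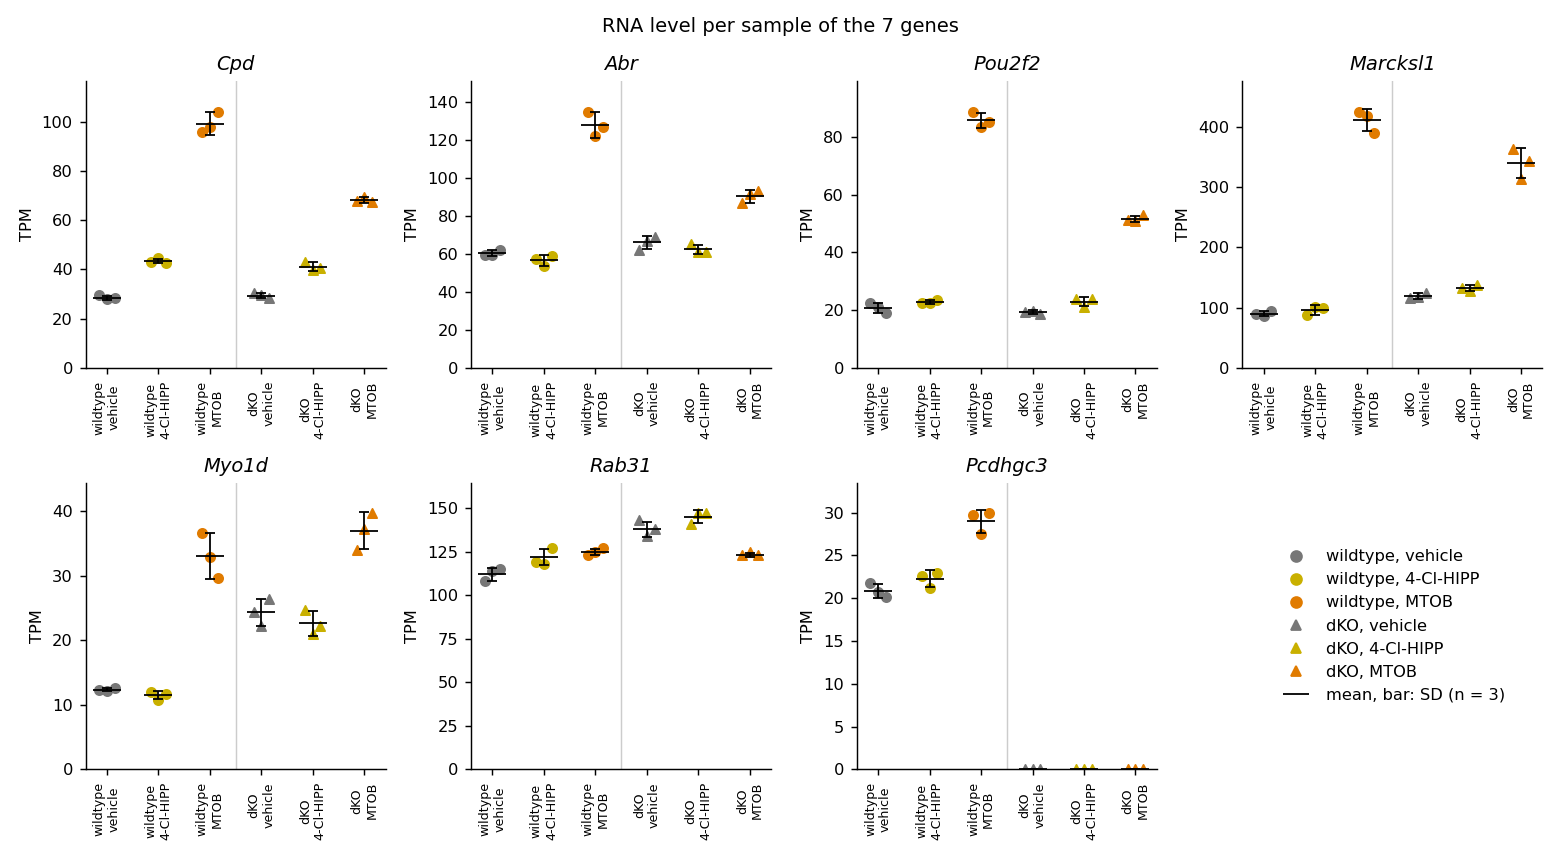
TPM of the 7 genes in each sample, by genotype (circles wildtype, triangles dKO) and treatment (grey vehicle, yellow 4-Cl-HIPP, orange MTOB), with the mean and SD of n = 3 as black bars. MTOB samples were the highest of their genotype for Cpd, Abr, Pou2f2, Marcksl1 and Myo1d. For Rab31 this did not hold, and Pcdhgc3 was listed at 0 in all 9 dKO samples.

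**Figure D3:**
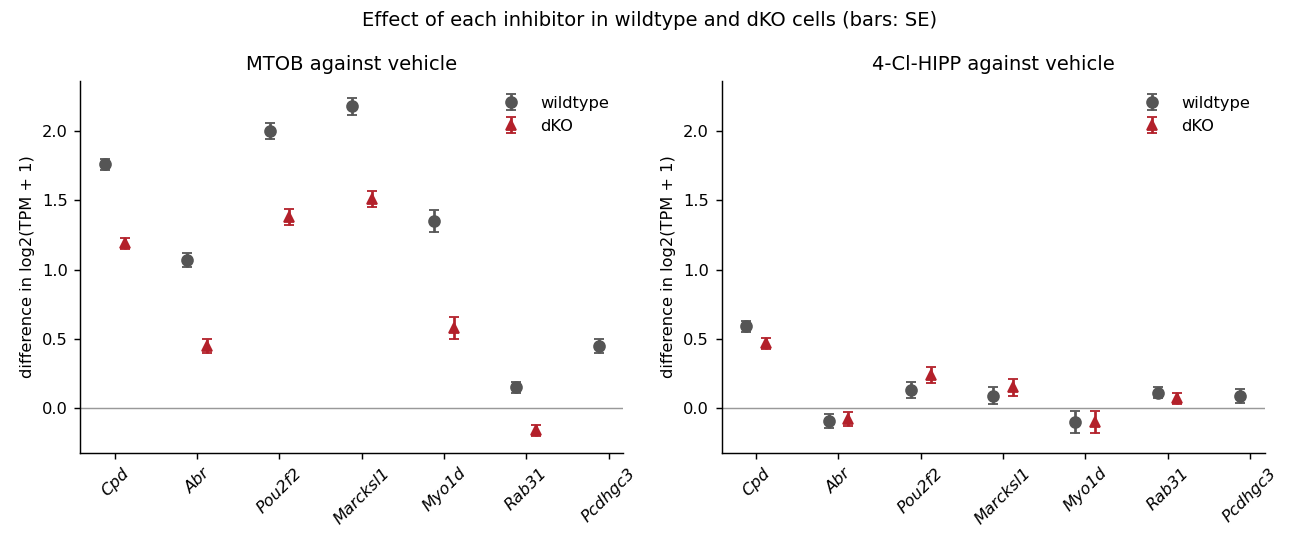
Difference from vehicle in log2(TPM + 1) under 1.5 mM MTOB (left) and 250 µM 4-Cl-HIPP (right) for each member, in wildtype (circles) and dKO cells (triangles), with the SE of the fit as bars. Pcdhgc3 has no dKO point because it was listed at 0. MTOB effects were larger in wildtype by 0.57 to 0.76 for the first 5 genes, the contrast that chose them.

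The differences of the 7 genes ranged from 0.31 to 0.76, all positive, as the choice on this contrast fixed in part. The threshold of adjusted p below 0.05 was passed by 15 genes in all (0.0916% of those tested), 14 with a positive difference and 1 with a negative one. This count was 6 without the variance trend, 8 with a replicate block and 7 without dKO vehicle replicate 3. The 8 that are no members were not selected for description. Rab31 was the last member inside the threshold, with a difference of 0.31, whereas Adar, an RNA-editing enzyme, was the last gene inside it, with 0.41, and Trappc4, a subunit of a vesicle-tethering complex, was the first outside, with -0.56. Only 4 of the 7 members, Cpd, Abr, Pou2f2 and Marcksl1, were past the threshold under each of 19 alternative settings. Myo1d was past it under 9, Pcdhgc3 under 8 and Rab31 under 6.

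The 4-Cl-HIPP samples of both genotypes did not enter the comparison that chose the genes, although the earlier fit shared its estimate of spread with them. In these 6 samples, 4 of the 7 members differed between genotypes at an adjusted p below 0.05 by limma, beside 10.2% of all genes tested. A change above 1.5-fold in addition was met by 2 members, Myo1d and Pcdhgc3, beside 4.72% of all genes. The groups did not overlap for 5 members, beside 25.2% of all genes, and the fifth of these was not past the threshold. Pcdhgc3, listed at 0 in the dKO samples, is in each of these counts. The members were chosen on a difference that implies a genotype gap under vehicle or MTOB, and with a spread shared with these samples. All genes were not chosen so, and their shares are a background, not a like comparison.

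Of the 4, Marcksl1, Myo1d and Rab31 were higher in dKO cells and Pcdhgc3 was listed at 0 there. Myo1d was higher by 0.92 (95% interval 0.74 to 1.09, limma adjusted p = 1.74e-06), Marcksl1 by 0.46 (0.32 to 0.60, adjusted p = 0.000144) and Rab31 by 0.25 (0.17 to 0.33, adjusted p = 0.000184), in each case with 3 of 3 dKO samples above all wildtype samples. Under vehicle, in samples that the choice did use, the same differences were 0.92, 0.40 and 0.30, and under MTOB they were 0.16, -0.27 and -0.02. The choice of genes fixed that the MTOB value and the vehicle value differ, and in these genes the MTOB value was the lower. Pcdhgc3 passed through wildtype samples alone and its dKO zeros have no spread, so its p and fold are not given. Among the 6 members above 0 in both genotypes, 3 passed the threshold and 1 of these, Myo1d, was also past 1.5-fold.

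The other 3 members did not pass the threshold under 4-Cl-HIPP. The difference was -0.08 for Cpd (95% interval -0.16 to 0.01, limma adjusted p = 0.324), 0.14 for Abr (0.03 to 0.25, adjusted p = 0.101) and 0.00 for Pou2f2 (-0.12 to 0.13, adjusted p = 1). Abr was the member whose groups did not overlap, at 61.1 to 65.3 TPM in dKO and 53.5 to 59.0 TPM in wildtype samples. These intervals allow differences of up to about the sizes at their ends, so equal levels were not shown. Under MTOB the same genes were lower in dKO cells by 0.53 (Cpd), 0.50 (Abr) and 0.72 (Pou2f2) in samples that the choice used, which is a description and no comparison with 4-Cl-HIPP.

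**Figure D4:**
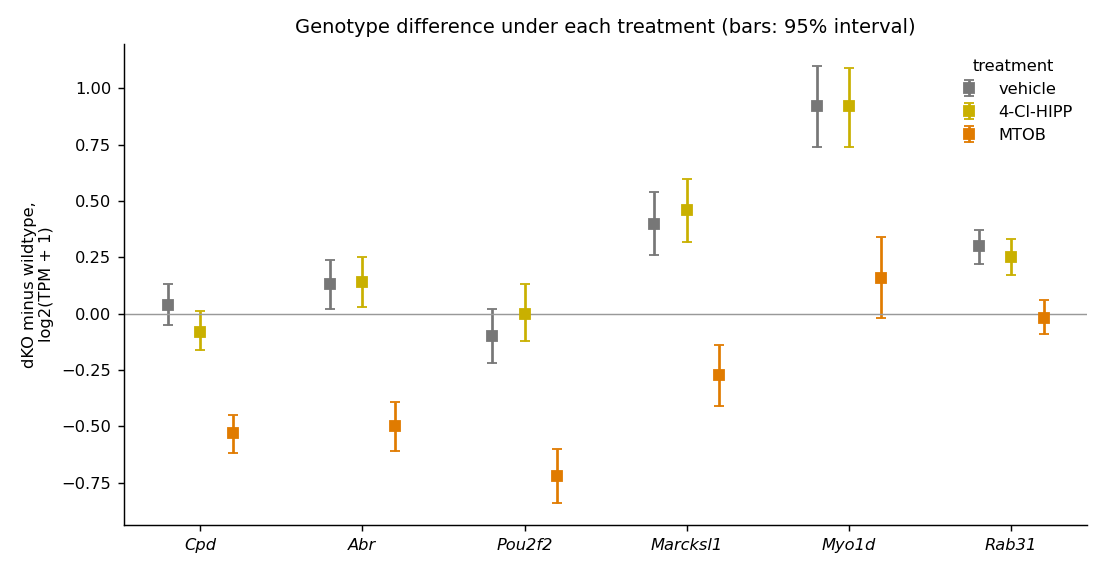
Difference of dKO minus wildtype in log2(TPM + 1) under vehicle, 4-Cl-HIPP and MTOB for 6 members, with 95% intervals of the fit (n = 3 per group). The 4-Cl-HIPP points, the only ones tested, lay above 0 for Marcksl1, Myo1d and Rab31 at adjusted p below 0.05. The choice of genes fixed that each MTOB point differs from the vehicle point, and each lay below it.

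To set the members beside genes of like role, 7 lists of relatives and partners with 111 genes were examined, of which 73 were tested. None of the 73 differed in its MTOB effect between genotypes at adjusted p below 0.05 by limma, 8 had an unadjusted p below 0.05 (6.89% of all genes tested did), and 1 passed without the variance trend. Nos2, inducible nitric oxide synthase, was that one (difference 0.54, limma adjusted p = 0.296 with the trend and 0.0455 without), and its mean normalized count was 1.98. It was listed at 0 in all dKO samples and at 0.429 to 0.625 TPM in wildtype MTOB samples, so its difference is a wildtype effect set against zeros. The median difference over the lists was 0.040 and over all genes tested 0.008. MTOB raised 7 list genes and lowered 5 in wildtype cells, beside 7.26% of all genes called in either direction, and raised 4 and lowered 5 in dKO cells, beside 6.58%. Under 4-Cl-HIPP 9 list genes were higher and 4 lower in dKO than in wildtype cells, beside the 10.2% of all genes in either direction.

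Among the 6 class I myosins tested other than Myo1d, which link membranes to actin, Myo1e had the nearest values. It rose by 1.39 under MTOB in wildtype (SE 0.06, limma adjusted p = 6.09e-10) and by 1.18 in dKO cells (SE 0.06, adjusted p = 4.74e-09). Its levels went from 13.2 ± 0.875 to 36 ± 1.07 TPM in wildtype and from 17.7 ± 0.165 to 41.6 ± 2.17 TPM in dKO samples (mean ± SD, n = 3). The effects differed by 0.21 (95% interval 0.03 to 0.38, limma adjusted p = 0.672), against 0.76 for Myo1d, and Myo1e too was higher in dKO under 4-Cl-HIPP, by 0.54 (adjusted p = 8.67e-06). Myo1f fell by 0.62 under MTOB in wildtype cells (adjusted p = 0.0158) and its dKO value of -0.44 did not pass (adjusted p = 0.0959). These effects did not pass a test of their difference, -0.19 (95% interval -0.63 to 0.26, limma adjusted p = 0.918). Myo1c, at -0.07 and -0.10, and Myo1g, at 0.04 and 0.14, did not pass in either genotype.

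The RAB5 subfamily, GTPases of early endosomes that include Rab31, was listed with exchange factors, effectors and cargo receptors, 17 genes in all. In wildtype cells MTOB raised 3 of them and lowered 0, beside 7.26% of all genes called in either direction. In dKO it raised 1 and lowered 0, beside 6.58%. The gene raised in dKO was the mannose 6-phosphate receptor gene M6pr, whose product carries lysosomal enzymes and is a known cargo of RAB31 traffic. M6pr rose by 0.37 in wildtype and 0.35 in dKO (SE 0.03 each, limma adjusted p = 4.48e-06 and 7.86e-06), so its effects differed by 0.01 (SE 0.05). The relatives Rab22a (0.36 and 0.06) and Rab21 (-0.04 and -0.17) did not pass under MTOB in either genotype. In dKO cells under 4-Cl-HIPP 3 of the 17 were higher and 0 lower, beside 10.2% of all genes in either direction. Among the 3 was Rin3, a RAB5-family exchange factor, higher by 0.74 (SE 0.05, limma adjusted p = 1.23e-07). Its vehicle levels were 31.1 ± 0.45 TPM in dKO and 17.8 ± 0.917 TPM in wildtype samples.

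The lists also held subunits of the phagocyte oxidase, which makes superoxide. Ncf1, the oxidase organiser p47phox, fell under MTOB by 0.32 in wildtype and 0.31 in dKO cells (SE 0.04 each, limma adjusted p = 8.56e-05 and 0.00015). Cybb, its membrane catalytic subunit, had a genotype difference (dKO minus wildtype) of -1.95 under 4-Cl-HIPP (limma adjusted p = 2.79e-08). The 4-Cl-HIPP levels of Cybb were 49.4 ± 2 TPM in dKO and 194 ± 15.1 TPM in wildtype samples. In the same order, they were 61.6 ± 6.39 and 213 ± 5.71 TPM under vehicle and 70.2 ± 14.8 and 270 ± 26.3 TPM under MTOB. Bcr, the closest relative of Abr, was not analysed here.

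Of the lists around the other members, 3 POU genes were tested and 0 passed under MTOB in either genotype. Beside the counts of these lists, 7.26% of all genes passed under MTOB in wildtype and 6.58% in dKO cells, in either direction. Pou2f1, which encodes the related octamer factor OCT1, was at -0.31 in wildtype and -0.18 in dKO (limma adjusted p = 0.216 and 0.523). In the list of MARCKS relatives, calmodulin and protein kinase C, 1 of 8 rose in wildtype and 0 passed in dKO cells. Of 11 carboxypeptidases and arginine enzymes 2 rose and 1 fell in wildtype cells and 1 rose in dKO cells, all at low levels. Those that rose were Nos2 and the arginase gene Arg2, with mean normalized counts of 1.98 and 3.46, and Arg2 rose in both genotypes, by 1.17 and 0.79 (limma adjusted p = 0.0013 and 0.0225). The one that fell was Cpq, a secreted peptidase, with a mean normalized count of 0.993. Cpe, Cpm and Marcks were not analysed here.

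The gamma protocadherin list had 9 genes tested and 3 whose mean normalized count reached 10. Pcdhgc5, a neighbour of Pcdhgc3, was higher in dKO under 4-Cl-HIPP by 0.96 (limma adjusted p = 0.00105), at 1.08 ± 0.186 against 0.0723 ± 0.0722 TPM. Under vehicle its levels were 0.882 ± 0.176 TPM in dKO and 0.0711 ± 0.0388 TPM in wildtype samples. It rose under MTOB in dKO by 0.69 (limma adjusted p = 0.0192). Its wildtype MTOB value was 0.39 (limma adjusted p = 0.21), and the effects did not pass a test of their difference, -0.30 (95% interval -0.80 to 0.20, adjusted p = 0.861). Pcdhgb7 was higher in dKO under 4-Cl-HIPP by 0.69 (limma adjusted p = 0.0145). Its vehicle levels were 1.13 ± 0.353 TPM in dKO and 0.262 ± 0.0342 TPM in wildtype samples. Pcdhgc4 spread from 0 to 8.5 TPM within the wildtype MTOB group alone and passed no test. Together the 15 other gamma protocadherins listed summed to 0.936 to 6.71 TPM in wildtype vehicle and 2.4 to 3.05 TPM in dKO vehicle samples. Pcdhgc3 alone was at 20.2 to 21.8 TPM in the wildtype vehicle samples.

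**Figure D5:**
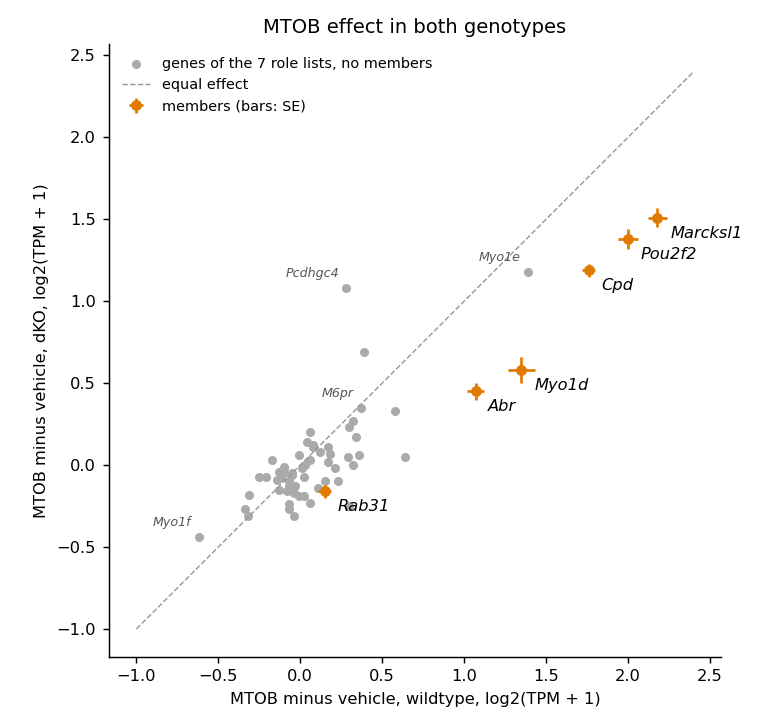
MTOB effect in dKO against wildtype cells, in log2(TPM + 1), for 6 members (orange, bars SE) and for the genes of the role lists whose mean normalized count reached 10 (grey). The dashed line marks an equal effect. Members lay below the line, on the contrast that chose them. Myo1e (1.39 and 1.18) also lay below it, by 0.21 (95% interval 0.03 to 0.38, limma adjusted p = 0.672).

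The genes with the pattern most like each member were found by the root mean square difference over the 6 group means, each gene centred on its own mean. For Rab31 these were Slc35e3 (0.026) and the inflammasome sensor gene Aim2 (0.031), and for Abr the cell cycle kinase gene Cdk6 (0.074) and the adaptor gene Dok2 (0.079). Myo1d was near to Lrrc25 (0.124), Pou2f2 to the endocytic gene Ehd1 (0.178) and Glipr1 (0.217), and Marcksl1 to Acod1 (0.186), which encodes the enzyme that makes itaconate, and Glrx (0.201). Cpd was nearest to the adaptor gene Fyb (0.208) and the osteopontin gene Spp1 (0.244). Several of these genes had a higher MTOB effect in wildtype than in dKO cells, without passing the threshold on that difference. The vehicle and MTOB means are among the 6 means matched, which favours such a gap, so these effects are a description. Wildtype and dKO effects were 0.20 and -0.15 for Aim2, 0.91 and 0.45 for Cdk6 and 1.35 and 0.85 for Lrrc25. They were 1.93 and 1.42 for Glrx and 1.57 and 1.07 for Spp1. The gap was small or reversed for Ehd1 (1.88 and 1.78), Acod1 (1.59 and 1.68) and Glipr1 (1.45 and 1.61). No gene came close to Pcdhgc3, whose nearest were the scavenger receptor gene Msr1 (0.677) and Igf1 (0.694). Among the members themselves, Cpd and Pou2f2 were each other's nearest at 0.241.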

How the data were processed

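The authors quantified reads with Salmon (1.9.0) on a Gencode transcriptome of GRCm39, summarised them per gene and deposited 1 table of 18204 genes. Its values are TPM per sample, which the authors call scaled TPM, and a per-gene signal, the normalized count averaged over samples, which the authors took from DESeq2 (1.44.0). The deposited log2 fold changes and adjusted p-values are the authors' own comparisons and were not used. The labels name polyA RNA and an unstranded kit, whereas the study's methods name rRNA depletion with that kit. Counts were not analysed here, so depth and counting error are unknown.

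Labelled genotype and treatment gave the groups; no batch is labelled. Genes above the 10th percentile of the mean normalized count (0.222) were fitted on log2(TPM + 1) with 6 group means over all 18 samples (limma 3.58.1, R 4.3.3), with empirical Bayes moderation, a trend of variance on the log2 of that mean count and Benjamini-Hochberg adjustment over 16383 genes. The pseudocount of 1 shrinks the fold changes of low genes. Intervals are 95% intervals of this fit. Two-sided tests were called at an adjusted p below 0.05, and for 1 count also above 1.5-fold.

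The members, lists, motifs and tests were chosen with earlier results of these data known. Named were all members, their nearest relatives by family, gamma protocadherins whose mean normalized count reached 10, list genes past the threshold on the MTOB difference, the 2 genes most alike to each member (same minimum), the genes next to the threshold, and Ctbp1 and Ctbp2. Ncf1, Cybb, M6pr, Rin3, Arg2 and Nos2 were named after their values were seen. Starts, gene positions and promoter windows came from the GRCm39 reference genome and annotation, the authors' build. Alternatives were another pseudocount (0.1), other filters, rescaled TPM, no variance trend, only the compared groups, a replicate block and leaving out each sample. Figures were drawn with matplotlib 3.10.9. Some sequences, 1 position, 1 list count and 1 like gene are not reported here.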

Additional observations from a re-analysis of the deposited data

Results flagged for a closer look

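The MTOB effect of the 7 members was singled out because its difference between wildtype and dKO cells passed the threshold that also chose them, so the values are a description. They were 0.57 for Cpd, 0.62 for Abr, 0.62 for Pou2f2, 0.68 for Marcksl1, 0.76 for Myo1d, 0.31 for Rab31 and 0.45 for Pcdhgc3, on the scale of log2(TPM + 1) and as wildtype minus dKO. For Pcdhgc3 the value is the wildtype effect set against zeros, and Myo1d, Pcdhgc3 and Rab31 were past the threshold in only 9, 8 and 6 of 19 alternative settings. Adar, which is no member and was named as the last gene inside the threshold, had 0.41, with MTOB effects of 0.50 in wildtype and 0.09 in dKO cells.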

How the results depend on the processing

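All 91 alternatives run for the genotype difference of the members under 4-Cl-HIPP kept their direction and their side of the threshold, apart from the sign of Pou2f2, which was not past it and ranged from -0.03 to 0.06. Limma adjusted p ranged over these from 5.54e-05 to 0.019 for Marcksl1, 3.68e-07 to 0.00273 for Myo1d, 0.000145 to 0.02 for Rab31, 0.159 to 0.634 for Cpd, 0.0788 to 0.337 for Abr and 0.656 to 1 for Pou2f2. The number of members past the threshold of the MTOB difference, 7, was 4 when the fit held only the compared groups and 4 to 6 when 1 sample was left out. The count of 4 came without wildtype vehicle 2, wildtype MTOB 1, dKO vehicle 1 or 3, or dKO MTOB 1 or 2. All genes past that threshold, 15, were 6 without the variance trend, 8 with a replicate block and 7 to 20 when 1 sample was left out. They were 7 to 9 without wildtype vehicle 1, wildtype MTOB 1, dKO vehicle 1 or 3, or dKO MTOB 1 or 2. For the genes of the role lists the count went from 0 to 1 without the variance trend. The cause was not tested for these. Same-numbered samples did not deviate together (correlations -0.141 to 0.091), so the numbers were not taken as pairs. Of 511 alternatives of the other member values 509 moved by less than the replicate SD, and the exceptions were the dKO minus wildtype values of Pcdhgc3 with a pseudocount of 0.1, -7.71 under vehicle and -8.19 under MTOB, which follow from the pseudocount since dKO values are 0. Rescaling of TPM used factors of 0.968 to 1.02. Without counts the depth behind low values, such as those of Nos2 and most gamma protocadherins, is unknown.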
